A study of Homo sapiens with 3 samples.

Results

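YAP and TEAD pathway genes were examined in the peak lists of chromatin immunoprecipitation sequencing (ChIP-seq) of HuCCT1 cells, an established cell line from cancer of the bile ducts. The 10 genes were taken by name, as members of the pathway, from the 19689 protein-coding genes with an annotated transcription start site (TSS): the co-activators YAP1 and WWTR1, the transcription factors TEAD1, TEAD2, TEAD3 and TEAD4, the target genes CCN1 and CCN2, and the kinases LATS1 and LATS2. There were 3 libraries, 1 each for an antibody against Strawberry Notch 1 (SBNO1), an antibody against TAF4, which belongs to the TFIID complex that starts transcription, and control immunoglobulin (IgG). The libraries came from the same unmodified line, with no treatment or genetic change named in the labels, and each was made from several pooled immunoprecipitations, so that there were no replicates and no test between antibodies. All peaks of the 3 lists were collected within 1 kb of a protein-coding TSS (here called promoter peaks), in the gene body, and in the 50 kb on either side of it, and the gene body with both flanks is called the locus.

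In the Hippo pathway, a chain of kinases ends in LATS1 and LATS2, which phosphorylate the co-activators YAP1 and TAZ (the product of WWTR1) and keep them out of the nucleus. When the kinases are inactive, YAP1 and TAZ enter the nucleus and bind DNA through the TEAD factors, since they have no DNA-binding domain of their own. The secreted matrix proteins encoded by CCN1 (formerly CYR61) and CCN2 (formerly CTGF) are the best known targets, and in the liver the pathway restrains growth and the bile duct fate. Earlier work cited by the study describes a direct interaction of Sbno1 with Tead4 in embryonic development, and the question here was where SBNO1 and TAF4 were listed at the genes of the pathway.

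The deposited lists held 16147 SBNO1, 12763 TAF4 and 1598 IgG peaks. Each peak had a score from the authors, a whole number with a cap of 1000 that 34.6%, 43.0% and 39.4% of the peaks reached, and the lists held no read numbers, so that sequencing depth is unknown here. Of the IgG peaks, 84.5% overlapped an SBNO1 and 87.5% a TAF4 peak, while 8.57% of the SBNO1 and 10.9% of the TAF4 peaks overlapped IgG. As a check of the cell type, TAF4 promoter peaks were found at the biliary markers KRT7, KRT19, EPCAM and SOX9 but not at CFTR, and SBNO1 promoter peaks at KRT19, EPCAM and SOX9. There was none at 5 hepatocyte or 4 leukocyte markers in any library, and of 5 stromal markers COL1A1 had both. Neither protein had a promoter peak at 65.0% of all protein-coding genes, so absence at so few markers says little. The SBNO1 and TAF4 peaks of EPCAM lay at different TSS and did not overlap. A peak list shows occupancy and not expression.

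SBNO1 promoter peaks were listed at 4 of the 10 genes (YAP1, WWTR1, TEAD4 and LATS2) and TAF4 promoter peaks at 6 (YAP1, WWTR1, TEAD1, TEAD4, CCN1 and CCN2). For comparison, 25.7% of all protein-coding genes had an SBNO1 and 31.9% a TAF4 promoter peak. The exact Clopper-Pearson interval (95%) of 4 of 10 was 12.2% to 73.8% and that of 6 of 10 was 26.2% to 87.8%, and both included the share of all genes. The intervals cover counting error only, and genes are not replicates. IgG had no promoter peak at any of the 10 genes, where 0 of 10 allows a share of up to 30.8% by the same method, and 1.41% of all genes had one. The peaks of SBNO1 and TAF4 overlapped by at least 1 bp at the promoters of YAP1, WWTR1 and TEAD4, a class that held 22.3% of all genes. TAF4 without SBNO1 was seen at 3 promoters (TEAD1, CCN1 and CCN2), compared with 9.29% of all genes, and SBNO1 without TAF4 at LATS2 (3.08% of all genes). TEAD2, TEAD3 and LATS1 had neither, like 65.0% of all genes.

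**Figure D1:**
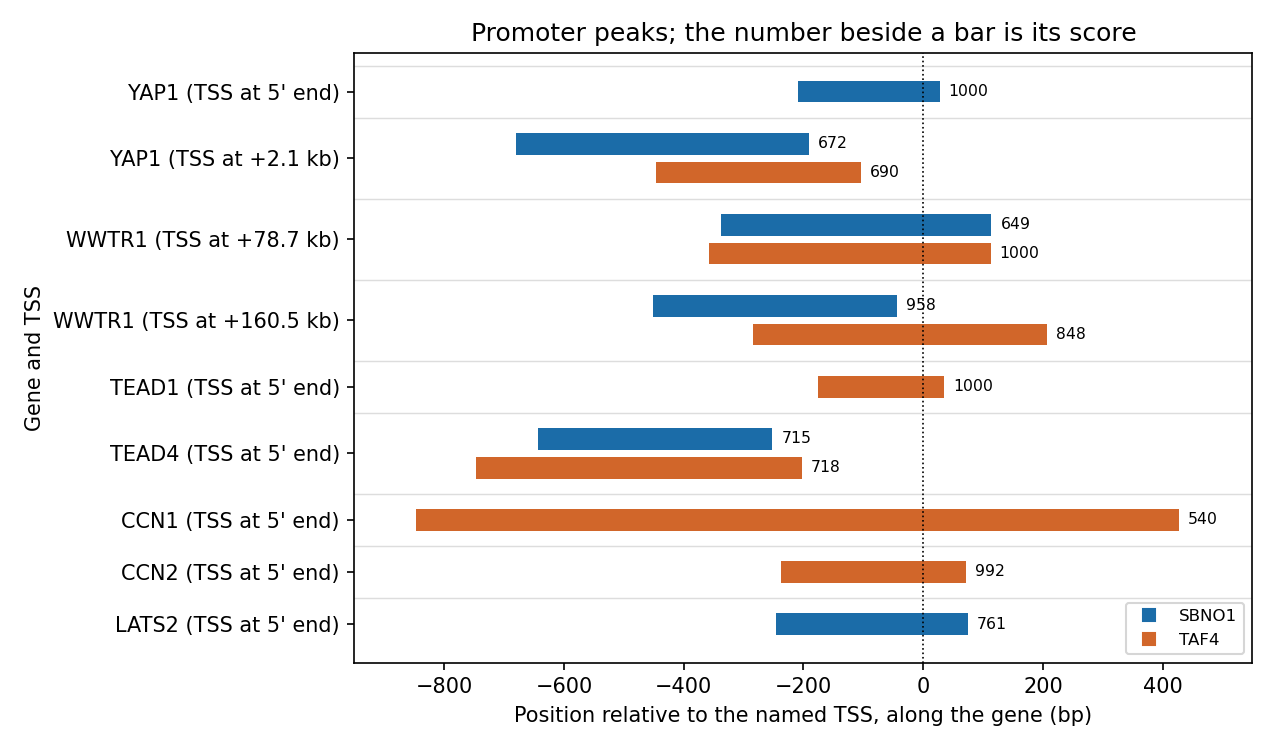
Promoter peaks of the 7 genes that had any, drawn as bars from start to end in bp relative to the nearest TSS of the gene (dotted line), with the score of each peak beside its bar; blue is SBNO1, orange is TAF4, and IgG had none. Both colours appear at YAP1, WWTR1 and TEAD4, orange alone at TEAD1, CCN1 and CCN2, and blue alone at LATS2.

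In the loci, which together spanned 1895.0 kb and did not overlap each other, there were 25 SBNO1, 21 TAF4 and 1 IgG peaks. This corresponded to 1.32, 1.11 and 0.0528 peaks per 100 kb, compared with 0.523, 0.413 and 0.0517 over the assembled chromosomes, which include stretches without genes. The number per locus ranged from 0 to 7 for SBNO1 and from 0 to 6 for TAF4. WWTR1 had the most SBNO1 peaks (7), followed by CCN1 (6), YAP1 (4), TEAD1 (3), TEAD4 and LATS2 (2 each) and TEAD3 (1). For TAF4 the order began with CCN1 (6), WWTR1 (5) and YAP1 (4), then TEAD1 (3), and TEAD3, TEAD4 and CCN2 had 1 each. With 1 library per antibody, no spread was available to tell neighbours in these orders apart. Among all protein-coding genes, 62.3% had an SBNO1 and 61.7% a TAF4 peak in the locus, and 7 of the 10 genes had each. An IgG peak was in the locus of 1 gene, CCN1, against 6.76% of all genes. In the gene body itself, 4 genes had SBNO1, 5 had TAF4 and 0 had IgG, against 33.7%, 35.9% and 2.23% of all genes. At least 2 SBNO1 peaks were in the locus of 6 of the 10 genes and of 38.2% of all genes, and here and below such limits were set by the genes' own numbers and are a description. TEAD2 and LATS1 had no SBNO1 and no TAF4 peak in the locus, which was the case for 30.2% of all genes.

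**Figure D2:**
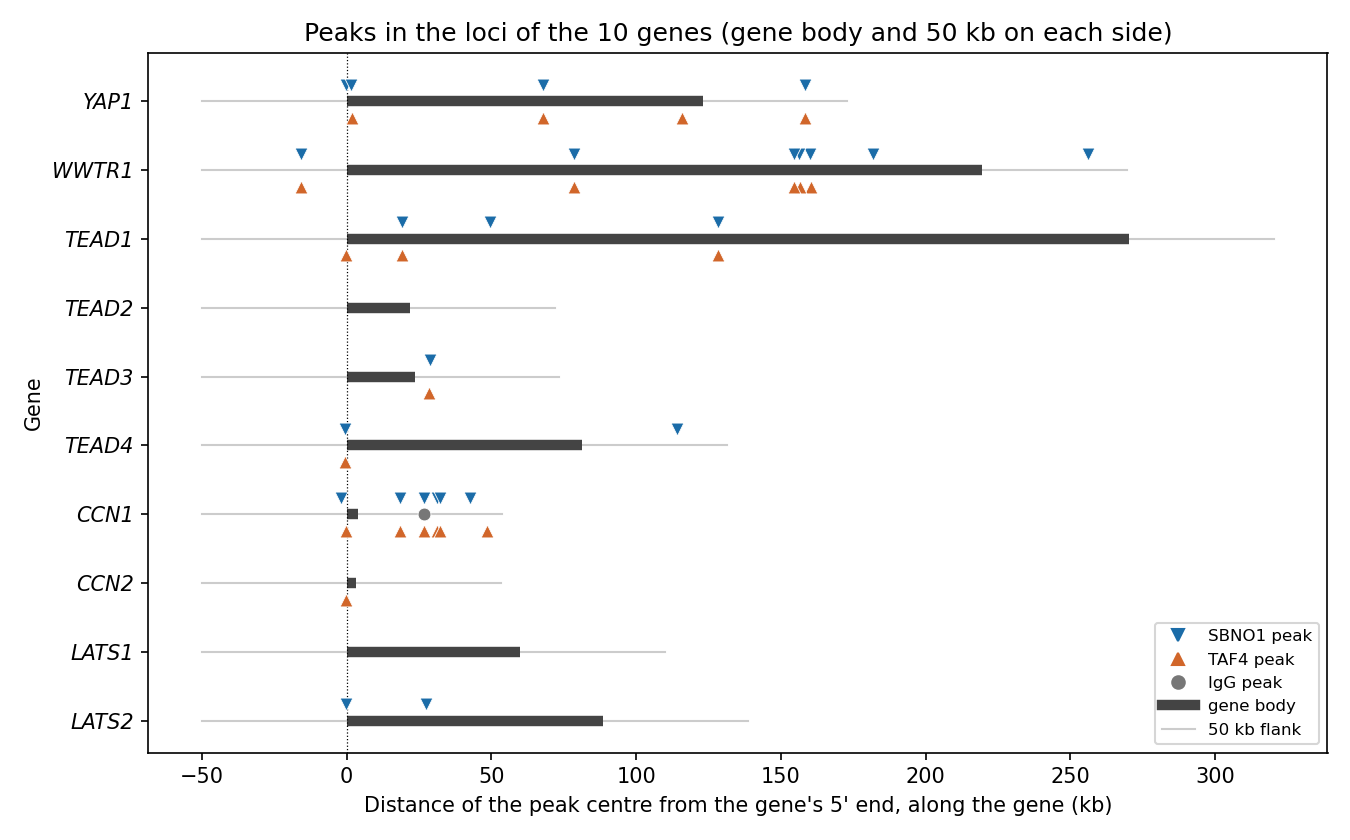
Peak centres in the loci of the 10 genes by distance in kb from the annotated 5′ end of the gene, along its direction; dark bars are gene bodies, thin lines the 50 kb flanks, and triangles pointing down, triangles pointing up and the grey circle are SBNO1, TAF4 and IgG peaks. The row of CCN1 shows a group of peaks downstream of a short gene, that of WWTR1 a group late in the gene, and the rows of TEAD2 and LATS1 are empty.

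YAP1 (ENSG00000137693.14, chromosome 11, 102110447 to 102233424, plus strand, GRCh38) encodes the co-activator that LATS1 and LATS2 restrain, and SBNO1 was listed at its first TSS where TAF4 was not. The SBNO1 peak at this TSS (chr11:102110238-102110474) was 237 bp wide, had a score of 1000 and was centred at -91 bp from the TSS. Its centre lay in an exon of the non-coding gene ENSG00000277459. At an inner TSS 2.1 kb along, an SBNO1 peak (chr11:102111835-102112323, score 672) and a TAF4 peak (chr11:102112069-102112409, score 690) shared 255 bp. Further along, 68.0 kb into the gene, an intron held an SBNO1 peak of 605 bp and a TAF4 peak of 464 bp that lay entirely within it, both with a score of 1000 and with centres 11 bp apart. A TAF4 peak 115.7 kb into the gene (score 785) had no SBNO1 partner. Downstream, at 158.2 kb, SBNO1 (score 964) and TAF4 (score 745) shared 536 bp between genes. The peaks of both proteins were thus mostly in pairs at YAP1, except at the first TSS and 115.7 kb along. At least 4 SBNO1 peaks, as in the YAP1 locus, occurred in 14.3% of all genes, a share not matched for locus length. At least 2 separate SBNO1 promoter peaks, as at YAP1 and WWTR1, occurred in 3.07% of all genes. YAP1 and WWTR1 have 5 and 7 annotated TSS, and this share was not matched for the number of TSS.

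The sequences under these peaks are shown to set the TSS, where a TEAD match was found, beside the intron, where an AP-1 match was found, and were read from the GRCh38 reference. TEAD factors bind the hexamer GGAATG, and AP-1, the dimer of FOS and JUN proteins that often shares enhancers with TEAD, binds TGACTCA. Both were searched on both strands, the matches are in capitals, and all sequences are written from 5′ to 3′ on the strand of the gene. The first is the part of the SBNO1 peak upstream of the YAP1 TSS (chr11:102110238-102110446, plus strand), and the next the 200 bp at the centre of the SBNO1 peak in the intron (chr11:102178339-102178538, plus strand).
YAP1 TSS: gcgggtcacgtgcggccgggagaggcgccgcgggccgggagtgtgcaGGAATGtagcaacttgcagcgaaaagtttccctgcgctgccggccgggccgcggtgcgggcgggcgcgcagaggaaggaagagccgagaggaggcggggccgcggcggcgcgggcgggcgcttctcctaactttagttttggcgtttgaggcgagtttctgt
YAP1 intron: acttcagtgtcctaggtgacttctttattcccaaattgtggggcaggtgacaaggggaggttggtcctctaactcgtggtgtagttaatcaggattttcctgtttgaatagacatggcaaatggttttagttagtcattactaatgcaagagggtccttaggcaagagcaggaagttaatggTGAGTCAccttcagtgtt

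The TEAD match of YAP1 lay 157 bp upstream of the TSS. The AP-1 match of the intron lay near the end of the window, at position 183 of 200, and inside the TAF4 peak as well. A match is a description of the letters and not a measured site. These examples were picked for their matches. The SBNO1 window at the inner YAP1 TSS held AP-1 and no TEAD match, and so did that of a WWTR1 promoter peak. In the whole SBNO1 list, 10.1% of the peaks within 1 kb of a TSS held a TEAD match, against 23.6% of those further away.

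WWTR1 (ENSG00000018408.15, chromosome 3, 149517235 to 149736714, minus strand), the gene of TAZ, had 2 promoter peaks of each protein, in pairs at inner TSS. At the TSS 78.7 kb from the annotated 5′ end, the SBNO1 peak (chr3:149657928-149658379, score 649) and the TAF4 peak (chr3:149657929-149658399, score 1000) were nearly the same region, with 451 bp shared and centres 11 bp apart, and the antisense gene WWTR1-AS1 has an exon there. At the TSS 160.5 kb along, SBNO1 (chr3:149576297-149576703, score 958) and TAF4 (chr3:149576046-149576537, score 848) shared 241 bp, and their centres were 209 bp apart, the widest offset among the 16 pairs of the 10 genes. In the intron beside it, SBNO1 had peaks with scores of 1000 and 952 at 156.4 and 154.6 kb. Their TAF4 partners had scores of 632 and 1000, an opposite order of scores, from 1 library each and with 1000 being the cap. The first of these pairs shared 219 bp, or 36.1% of the TAF4 peak, with centres 204 bp apart. An SBNO1 peak 181.7 kb along (score 845) had no TAF4 partner. The outermost SBNO1 peaks belonged to neighbours by distance, since that upstream of WWTR1 covered a TSS of COMMD2 and also overlapped TAF4, and that downstream lay in an intron of TM4SF4 without TAF4. WWTR1 had the most SBNO1 peaks of the 10 genes, and a locus with at least 7 was found for 3.85% of all genes. At least 5 TAF4 peaks were in the locus of 7.42%, and at least 5 SBNO1 peaks that overlap TAF4 in that of 4.46% of all genes. These shares were not matched for locus length. The WWTR1 locus, at 319.5 kb, held 2.19 SBNO1 peaks per 100 kb, against 5.78 for CCN1.

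The SBNO1 peak of the intron, centred at -5861 bp from the nearest TSS of the gene (chr3:149582014-149582213, minus strand), is shown because it was the SBNO1 window with more than 1 AP-1 match.
WWTR1 intron: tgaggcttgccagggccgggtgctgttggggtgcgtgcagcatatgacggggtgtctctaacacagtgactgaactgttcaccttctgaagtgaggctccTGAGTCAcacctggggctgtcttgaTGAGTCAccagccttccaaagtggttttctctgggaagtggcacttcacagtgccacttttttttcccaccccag

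By the numbers of SBNO1, TAF4 and IgG peaks in the locus, 24 other genes had the same 7, 5 and 0 as WWTR1. The 3 with the most similar locus length were ATP1B1 (305.3 kb, chromosome 1), ITPK1 (279.4 kb, chromosome 14) and PPP2R5C (266.3 kb, chromosome 14), compared with 319.5 kb for WWTR1. The likeness rests on 3 numbers.

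The TEAD genes, which encode the DNA-binding partners of YAP1 and TAZ, differed from each other. TEAD1 (ENSG00000187079.20, chromosome 11, 12674421 to 12944737, plus strand) had a TAF4 peak of 211 bp at the first TSS (chr11:12674246-12674456, score 1000), at the width percentile 6.91 of the TAF4 list, and the nearest SBNO1 peak was 17.9 kb from a TSS. All 3 SBNO1 peaks of TEAD1 were in its introns, at 19.3, 49.5 and 128.4 kb, with scores of 598, 939 and 1000. TAF4 was paired with the first and the last of these (scores 1000 and 955), with centres 8 and 20 bp apart. The middle one, without TAF4, had 2 TEAD matches in its window, and the windows of the other 2 had none.

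TEAD4 (ENSG00000197905.10, chromosome 12, 2959330 to 3040676, plus strand) had both proteins upstream of its first TSS. The SBNO1 peak (chr12:2958687-2959078, score 715) lay entirely within the TAF4 peak (chr12:2958584-2959127, score 718), 252 bp from the TSS, and they were centred at -448 and -475 bp. Another SBNO1 peak, 114.3 kb along and nearest to TSPAN9, was 121 bp wide, at the width percentile 0.656 of the SBNO1 list, with a score of 1000 and no TAF4. TEAD3 (ENSG00000007866.22, chromosome 6, 35473597 to 35497079, minus strand) had no peak at its promoter or in its body, and the SBNO1 and TAF4 peaks in its locus (scores 1000 and 1000) both covered a TSS of the ribosomal gene RPL10A. TEAD2 (ENSG00000074219.14, chromosome 19, 49340595 to 49362457, minus strand) had none in its locus, and the nearest SBNO1 and TAF4 peaks were 89.3 and 89.2 kb from its TSS. Of the 4 TEAD genes, TAF4 was thus listed at the promoters of TEAD1 and TEAD4, and SBNO1 at that of TEAD4.

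The centre of the shared TEAD4 peak (chr12:2958783-2958982, plus strand) and that of the shared TEAD1 peak at 19.3 kb (chr11:12693650-12693849, plus strand) are shown, since the TEAD4 promoter held a match to the TEAD hexamer and the intron an AP-1 match.
TEAD4 upstream: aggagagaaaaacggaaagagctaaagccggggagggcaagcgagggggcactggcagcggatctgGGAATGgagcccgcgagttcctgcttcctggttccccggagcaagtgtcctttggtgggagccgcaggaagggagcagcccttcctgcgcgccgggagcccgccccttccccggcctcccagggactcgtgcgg
TEAD1 intron: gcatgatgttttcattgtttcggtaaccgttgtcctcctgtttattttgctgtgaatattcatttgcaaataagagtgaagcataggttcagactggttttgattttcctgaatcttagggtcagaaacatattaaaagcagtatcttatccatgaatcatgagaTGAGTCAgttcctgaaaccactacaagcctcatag

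The TEAD match of TEAD4 lay 476 bp upstream of the TSS.

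The target genes CCN1 and CCN2, which are short, had TAF4 and no SBNO1 at the promoter. At CCN2 (ENSG00000118523.6, chromosome 6, 131948176 to 131951372, minus strand), the TAF4 peak covered the TSS (chr6:131951301-131951609, 309 bp, score 992) and was the only peak of the locus. The nearest SBNO1 peak was 180 kb from the TSS. At CCN1 (ENSG00000142871.18, chromosome 1, 85580761 to 85584589, plus strand), the TAF4 peak at the TSS was 1274 bp wide (chr1:85579915-85581188, score 540), at the width percentile 98.8 of the TAF4 list. The nearest SBNO1 peak started 1.73 kb away (chr1:85578440-85579033, score 630, no TAF4), but was 77 bp from a TSS of the divergent gene DDAH1.

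SBNO1 was instead listed downstream of CCN1. Between 18.4 and 48.4 kb from the TSS there were 5 SBNO1 and 5 TAF4 peaks, of which 4 were paired. The pairs lay at 18.4 kb (SBNO1 score 776, TAF4 score 728), at 26.6 kb (1000 and 996), at 31.3 kb (1000 and 1000, with centres 5 bp apart) and at 32.3 kb (380 and 1000). An SBNO1 peak at 42.5 kb (score 553) and a TAF4 peak at 48.4 kb (score 546) were single. The pair at 26.6 kb coincided with the IgG peak (693 bp, score 477), so at this region the control had a peak as well. It was the widest SBNO1 peak of the 10 loci, at 739 bp. A locus with at least 6 SBNO1 peaks was found for 5.75% of all genes, and for 4.77% of the 2096 genes whose locus was no longer than that of CCN1 (103.8 kb). For at least 6 TAF4 peaks the shares were 4.67% and 6.15%, and at least 4 SBNO1 peaks that overlap TAF4 were in the locus of 7.73% of all genes. All 5 SBNO1 peaks downstream had CCN1 as the gene of the nearest protein-coding TSS, which does not show which gene they act on.

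The upstream part of the TAF4 peak of CCN2 (chr6:131951373-131951609, minus strand) is shown for its TEAD matches, and the centre of the SBNO1 peak 32.3 kb downstream of CCN1 (chr1:85612980-85613179, plus strand) because it held 2 in the window.
CCN2 TSS: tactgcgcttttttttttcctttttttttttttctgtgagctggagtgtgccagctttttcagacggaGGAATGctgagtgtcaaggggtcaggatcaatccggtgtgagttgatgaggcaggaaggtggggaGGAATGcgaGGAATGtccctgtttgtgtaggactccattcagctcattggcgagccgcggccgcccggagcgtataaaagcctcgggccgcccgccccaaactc
CCN1 downstream: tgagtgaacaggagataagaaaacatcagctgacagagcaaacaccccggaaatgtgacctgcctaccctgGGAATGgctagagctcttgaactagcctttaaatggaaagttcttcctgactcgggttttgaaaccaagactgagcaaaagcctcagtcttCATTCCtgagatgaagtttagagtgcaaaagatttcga

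The CCN2 promoter held 3 TEAD matches, all as GGAATG on the strand of the gene, 90, 99 and 164 bp upstream of the TSS. Of 35116 RefSeq promoters (GRCh38.p14, 250 bp before to 50 bp after the start), 4928 held at least 1 match and 0.128%, or 45 promoters, held 3 or more. The limit of 3 was chosen after the CCN2 count was known. RefSeq promoters were matched for 7 of the 10 genes, and YAP1, CCN2 and LATS2 had a TEAD match there, while none of the 7 had an AP-1 match, which 4.95% of all promoters had.

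LATS1 and LATS2 are the kinases that restrain YAP1 and TAZ. LATS2 (ENSG00000150457.9, chromosome 13, 20973036 to 21061586, minus strand), also a known YAP1 target, had an SBNO1 peak over its TSS (chr13:21061512-21061832, 321 bp, score 761) and another in an intron 27.5 kb along (500 bp, score 651). The nearest TAF4 peak was 78.7 kb from the TSS, so LATS2 was the gene of the 10 with SBNO1 and without TAF4 in the whole locus. LATS1 (ENSG00000131023.13, chromosome 6, 149658153 to 149718105, minus strand) had no peak in its locus. Its nearest SBNO1 peak was 351 kb and its nearest TAF4 peak 1323 kb from a TSS.

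Pairs and single peaks of the 10 loci were then set side by side. Of the 25 SBNO1 peaks, 16 were paired with TAF4 (64.0%, with an interval from 42.5% to 82.0%), and in the whole SBNO1 list 59.7% were. In the other direction, 16 of the 21 TAF4 peaks overlapped SBNO1 (76.2%, interval 52.8% to 91.8%), compared with 75.2% of the whole list. The centres of the pairs were 5 to 209 bp apart, with a median of 42 bp. Paired SBNO1 peaks had a median score of 955 and a median width of 441 bp, and the 9 single ones had 845 and 291 bp. For TAF4 the medians were 975.5 and 438 bp in 16 paired, and 785 and 406 bp in 5 single peaks. The ranges overlapped widely, with scores of 380 to 1000 in paired and 553 to 1000 in single SBNO1 peaks. The score cap was reached by 8 of 25 SBNO1 and 8 of 21 TAF4 peaks, 32.0% and 38.1%, against the 34.6% and 43.0% of the lists.

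**Figure D3:**
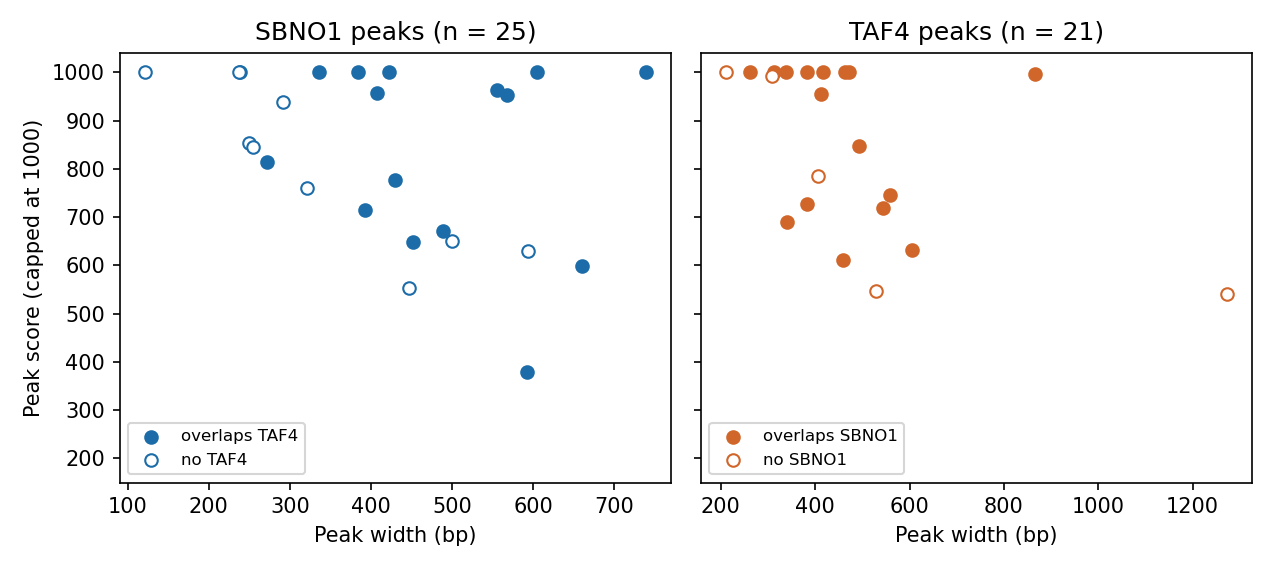
Score, capped at 1000, against width in bp for the 25 SBNO1 peaks (left) and the 21 TAF4 peaks (right) of the 10 loci; filled points overlap a peak of the other protein and open points do not. The scores of open and filled points overlap widely, and the widest TAF4 peak, at 1274 bp, is the single one at the CCN1 TSS.

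Motif matches were counted in the 200 bp at each peak centre. Of the 25 SBNO1 windows, 6 held AP-1 (24.0%, interval 9.36% to 45.1%) and 7 held TEAD (28.0%, interval 12.1% to 49.4%), and no window held both. In the whole SBNO1 list the shares were 27.8% and 19.6%. The AP-1 windows were 2 at YAP1, 2 at WWTR1, 1 at TEAD1 and 1 at CCN1, and all 6 belonged to peaks paired with TAF4. In the whole SBNO1 list, 46.5% of the 4496 peaks with AP-1 overlapped TAF4. Of the 10 SBNO1 peaks centred in an intron of their own gene, 5 held AP-1 and 1 held TEAD, against 34.4% and 21.5% of the 5656 SBNO1 peaks centred in an intron of any protein-coding gene. Of the 16 SBNO1 peaks over 1 kb from every TSS, 4 held AP-1 and 5 TEAD, against 36.6% and 23.6% of all SBNO1 peaks at that distance. Among the 21 TAF4 windows, 5 held AP-1 and 8 TEAD, or 23.8% (interval 8.22% to 47.2%) and 38.1% (interval 18.1% to 61.6%), against 19.3% and 16.9% of the list. The interval for TEAD lay above the share of the list, but 3 of the 8 windows were at CCN1, 1 of them in the peak that overlaps IgG, and peaks of 1 locus are not independent. The TEAD hexamer was frequent in the IgG list (30.4%), where 15.6% of the windows also held the pentamer GGAAT in tandem, a unit of satellite repeats. Without such windows the TEAD shares of the SBNO1, TAF4 and IgG lists were 18.4%, 15.2% and 17.5%, with the control between the antibodies. These shares were not matched for distance to a TSS. Over 1 kb from a TSS, the remaining windows gave 22.0%, 21.2% and 19.0%, with the control below both antibodies. This split by tandem GGAAT was chosen after the IgG share was seen.

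The wider pathway was examined in lists of 49 further regulators and of 22 target genes used as a signature of YAP1 activity. Of the 49 regulators, 18 had an SBNO1 promoter peak (36.7%, interval 23.4% to 51.7%) and 23 a TAF4 promoter peak (46.9%, interval 32.5% to 61.7%), against 25.7% and 31.9% of all genes, and IgG had none. These shares were not matched for the number of TSS. With 1 TSS per gene, 16 of the 49 had SBNO1 and 16 had TAF4, against 22.3% and 28.4% of all genes. Among 19 kinases and scaffolds, 6 had SBNO1 and 11 TAF4. Both were present at MOB1A (scores 1000 and 1000), STK4 (1000 and 735), TAOK3 (937 and 1000), TAOK1 (740 and 838) and STK38L (377 and 596). STK4 is a kinase upstream of LATS1 and LATS2, MOB1A their co-activator, and the TAO kinases act above STK4. The peaks overlapped at 5 of the 19, a class that held 22.3% of all genes. SBNO1 without TAF4 was seen at TAOK2 (score 692), against 3.08% of all genes. TAF4 without SBNO1 occurred at 6 of the 19, against 9.29% of all genes. Among them were WWC1, STK3, NUAK2 and RASSF1 with scores of 1000 and FRMD6 with 448. STK3 is the close relative of STK4 at the head of the kinase chain.

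Of 17 junction and polarity regulators, which hold YAP1 at cell contacts or relay them, 5 had both proteins, with SBNO1 scores of up to 1000 at PTPN14, 879 at PALS1, 839 at AMOTL2, 812 at AMOTL1 and 531 at FJX1, and no gene had one without the other. The peaks overlapped at all 5, so overlapping peaks were found at 29.4% of the 17 genes, against 22.3% of all genes. SBNO1 or TAF4 without the other was found at 3.08% and 9.29% of all genes. The share of junction genes with each protein, 29.4%, was close to the 25.7% and 31.9% of all genes. Of 13 cofactors and other regulators of YAP1 and the TEAD factors, 7 had both (53.8%, interval 25.1% to 80.8%), against 25.7% and 31.9% of all genes with each. Their peaks overlapped at 6, a class that held 22.3% of all genes. The highest SBNO1 scores were 1000 at CSNK1E, SMAD3 and VGLL4, 934 at BTRC and 830 at CSNK1D. At VGLL4, a competitor of YAP1 for the TEAD factors, the SBNO1 peak and the 3 TAF4 peaks lay at different TSS and did not overlap.

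In the target signature, 12 of 22 genes had an SBNO1 promoter peak (54.5%, interval 32.2% to 75.6%) and 14 a TAF4 promoter peak (63.6%, interval 40.7% to 82.8%), against 25.7% and 31.9% of all genes. With scores at or above the median of each list, 3 and 7 of the 22 were left, against 13.1% and 19.6% of all genes. The signature includes CCN1, CCN2 and LATS2, and without them the numbers were 11 and 12 of 19. Both proteins were present at 10 of the 22 genes, with overlapping peaks at each, a class that held 22.3% of all genes. The highest SBNO1 scores were 1000 at ARHGEF17 and PTPN14, 960 at ANKRD1, 843 at GADD45A and 839 at AMOTL2. ANKRD1, a nuclear repeat protein, and AMOTL2, which binds YAP1 in the cytoplasm, are widely used readouts of the pathway. SBNO1 without TAF4 was seen at LATS2 and CCDC80 (score 615), and TAF4 without SBNO1 at CCN1, CCN2, NUAK2 (score 1000) and TGFB2 (score 691). These classes held 3.08% and 9.29% of all genes. IgG had a promoter peak at ARHGEF17 (score 350) and MYOF (score 710), 9.09% of the signature against 1.41% of all genes, and at both genes it overlapped an SBNO1 and a TAF4 peak. Without the peaks that overlap IgG, the numbers were 11 for SBNO1 and 13 for TAF4. MYOF is named here for its IgG peak, after its values were seen. PTPN14, AMOTL2, FJX1 and NUAK2 were also among the regulators, so the lists were not independent.

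**Figure D4:**
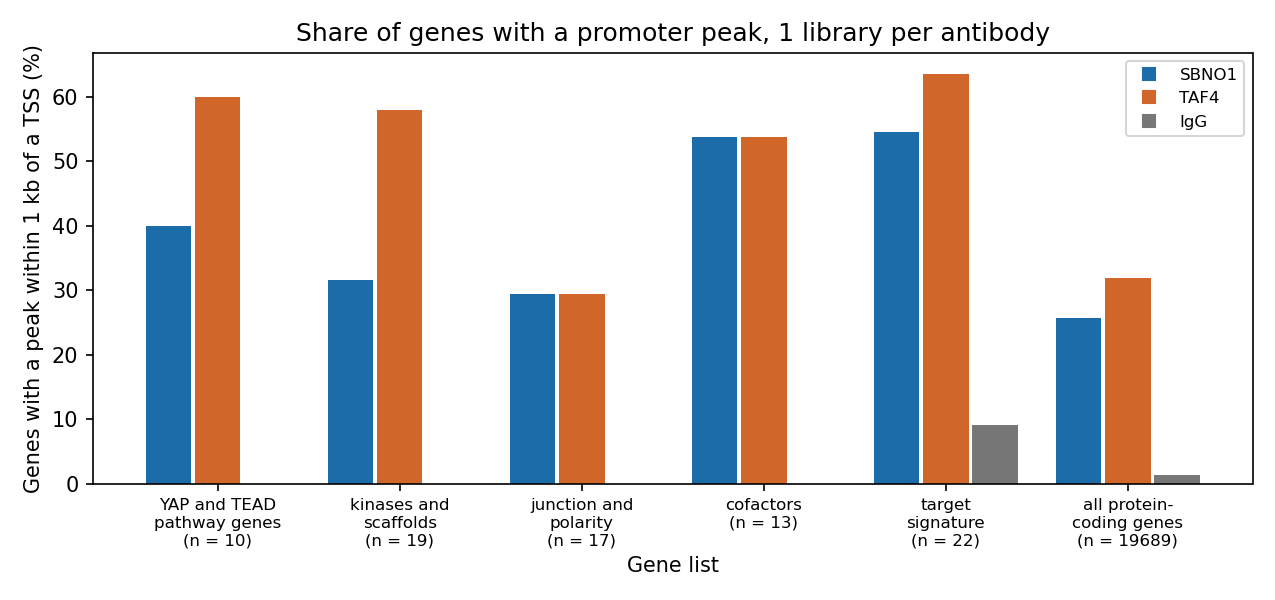
Share of genes in percent with a peak within 1 kb of a TSS for SBNO1 (blue), TAF4 (orange) and IgG (grey) in the 10 genes, 3 lists of pathway regulators, the target signature and all 19689 protein-coding genes, with 1 library per antibody and therefore no error bars. The bars of the target signature reach 54.5% for SBNO1 and 63.6% for TAF4, and it is the list with an IgG bar besides all genes.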

How the data were processed

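HuCCT1 ChIP-seq peak lists of SBNO1, TAF4 and IgG were used, 1 library per antibody. According to the methods of the study, pooled immunoprecipitates were sequenced as short single-end reads, trimmed with ktrim, aligned to GRCh38.p14 with Bowtie2 and passed to normR. The submitters' processing notes name Genrich 0.6.1 and Bowtie2 2.5.4, so the caller was not settled. Genes with a promoter peak numbered 5057 for SBNO1 and 6280 for TAF4 here, far more than the study reported for the same distance. Within 1 kb of a TSS lay 4791 of 16147 SBNO1 and 6042 of 12763 TAF4 peaks, smaller shares than the study reported. The lists used here thus did not match the peak set that the study describes. The peak threshold, duplicate handling and use of IgG as control were not given in the sources used here. The deposited score is the authors' value with a cap of 1000 and unknown scaling, used only to order peaks within a list.

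Peaks were taken 1-based and unfiltered. TSS were those of protein-coding transcripts in GENCODE 44 (78567 sites), the same build. Distance ran from the nearest peak edge, each peak was assigned to all genes within the distance, and overlap meant 1 bp or more. Motifs were exact matches in 200 bp windows. Functions were tested on simulated data. No p-values were computed. Python 3.11.15, pandas 2.3.3 and samtools 1.23.1 were used. All 10 genes were named with every promoter peak, further genes by SBNO1 score within each list (TAF4 score where SBNO1 was missing, at most 5 per class). The rule for other peaks of the loci was the 3 highest scores per gene and protein, and those beyond it were named after their values were seen. Printed sequences leave out annotated exons of the genes. The genes and lists were chosen with earlier results of these data known. Alternatives were other TSS sets, distances, flanks, score filters, overlap rules and motif definitions. A promoter sequence and a marker gene are not reported here.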

Additional observations from a re-analysis of the deposited data

How the results depend on the processing

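No paired analysis was possible because there was 1 library per antibody. Of 131 values under 16 alternatives, 88 stayed within 1.5 times the main value and 43 moved. The depth of the libraries is unknown, so a missing peak does not show that a protein was absent.

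The score filters moved most, by construction, since they leave fewer peaks. With scores at or above the median of each list, promoter peaks were left at 2 of the 10 genes for SBNO1 (YAP1 and WWTR1) and 3 for TAF4 (WWTR1, TEAD1 and CCN2), against 13.1% and 19.6% of all genes, and 0 promoters had overlapping peaks. At the score cap the numbers were 1 for SBNO1 (YAP1), 2 for TAF4 (WWTR1 and TEAD1) and 0, against 9.14% and 17.3% of all genes. In the same order of filters, the 49 regulators fell to 9 and 6 for SBNO1 and 15 and 13 for TAF4. The 22 targets fell to 3 and 2 for SBNO1 and 7 and 6 for TAF4. The shares of all genes to set beside these are again 13.1% and 9.14% for SBNO1 and 19.6% and 17.3% for TAF4. Targets with SBNO1 fell further than all genes did, and were then near the share of all genes. Locus peaks fell to 12 and 8 for SBNO1, 11 and 8 for TAF4 and 0 for IgG, pairs to 6 and 3, AP-1 windows to 3 and 1 and TEAD windows to 4 and 2.

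With 1 TSS per gene, overlapping promoter peaks were left at 1 gene, TEAD4, because the paired TSS of YAP1 and WWTR1 are inner ones. SBNO1 promoter peaks were then left at 3 of the 10 genes (YAP1, TEAD4 and LATS2). TAF4 promoter peaks were left at 4 (TEAD1, TEAD4, CCN1 and CCN2). The shares of all genes were 22.3% and 28.4%. Under this setting the 22 targets had 10 with SBNO1 and 14 with TAF4. With flanks of 100 kb the loci held 38 SBNO1, 34 TAF4 and 4 IgG peaks and 26 pairs, and the gene bodies alone held 13, 12 and 0 peaks and 8 pairs. TEAD windows numbered 3 with flanks of 25 kb and 2 in gene bodies. Counted in whole peaks, 12 SBNO1 peaks held TEAD, and 2 windows held the longer ACATTCC on either strand. Within 3 kb of a TSS, CCN1 joined the genes with SBNO1. Removing peaks that overlap IgG changed no gene among the 10, and neither did equal list lengths.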
